A study of Mus musculus with 4 samples.

Results

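Phospholipases A2 are a family of enzymes that cut a fatty acid from membrane or dietary phospholipids, and Plb1 encodes phospholipase B, an enzyme of the enterocyte brush border that digests dietary phospholipid. The genes examined here were Pla2g4c, Pla2g4a, Pla2g6, Pla2g2a, Pla2g5, Pla2g10, Pla2g12a, Pla2g12b and Plb1. All probe sets annotated with 1 of these 9 symbols were taken, which gave 15 of the 45101 probe sets on the array and 9 of its 18194 named genes. Of the 15 probe sets, 13 had a signal at or above the median of an array on at least 1 of the 4 arrays and were used for ratios. The genes were chosen by name with their signals on these same 4 arrays already known, above all the large differences of Pla2g4c and Plb1 between genotypes. The ratios and counts of these genes are therefore descriptions.

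The study asked what lubiprostone, a bicyclic fatty acid used against constipation, does in mice without the chloride channel CFTR. Total RNA was taken from the entire small intestine of C57BL/6 mice, pooled within each of 4 groups, and each pool was put on 1 Affymetrix mouse expression array. CF + lubiprostone was a pool of 8 cftr-tm1Unc (cftr null) mice gavaged with lubiprostone at 10 µg/kg/day for 2 weeks, and CF control was a pool of 10 cftr-tm1Unc mice with no treatment. WT + lubiprostone was a pool of 7 wild type mice given the same dose for the same 2 weeks. WT control was a pool of wild type mice with no treatment, of 10 mice by the description of the arrays and 8 by the methods of the study. All mice were kept on the liquid diet Peptamen after weaning, which lowers the risk of intestinal obstruction in CF mice, so no group shows the genes on solid food. With 1 array per group there was no replicate and no test, and the spread between mice is unknown. The whole organ was extracted, so that fewer cells of a type and less RNA per cell cannot be told apart.

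Signals are linear, in arbitrary units, and were scaled by the authors so that the mean of each array without its highest and lowest 2% of values was 500.0. The medians lay between 109 and 124 on the 4 arrays and the 75th percentiles between 464 and 482. Cftr itself had signals of 715 in CF + lubiprostone and 620 in CF control, against 2226 in WT + lubiprostone and 2505 in WT control, by its brighter probe set (1420579_s_at). By its dimmer probe set (1427767_a_at) the signals were 43.3, 47.3, 159 and 302 in the same order. Averaged over both, the CF control signal was 5.08-fold lower than that of WT control as measured and at least 3.34-fold lower when signals below the array's median were set to it, and both CF arrays were below both WT arrays, as their labels have it. Such "at least" folds are given beside most folds that a dim signal enters. A signal depends on the probes, so levels are compared between arrays and not between genes. Where a gene had more than 1 probe set, their log2 ratios had a median SD of 0.24 for CF control over WT control, 0.26 for CF + lubiprostone over CF control and 0.20 for WT + lubiprostone over WT control, a spread within arrays only.

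In the cell, the cytosolic phospholipases A2 free arachidonic acid and other fatty acids from membranes, and arachidonic acid is the raw material of prostaglandins and leukotrienes. The secreted enzymes act outside the cell, on lipoproteins, bacteria and the contents of the gut. In the small intestine the family therefore takes part in fat digestion, in defence by Paneth cells and in the making of lipid signals.

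Pla2g4c encodes the cytosolic group IVC enzyme, also called cPLA2 gamma, which works without calcium and, in human cells, is held on membranes by a lipid anchor. By probe set 1436712_at its signal was 3989 in CF + lubiprostone, 14835 in CF control, 113 in WT + lubiprostone and 403 in WT control. By probe set 1444662_at the signals were 842 in CF + lubiprostone, 9847 in CF control, 104 in WT + lubiprostone and 213 in WT control. Both probe sets gave the same order, with CF control far above the rest, CF + lubiprostone next, then WT control, and WT + lubiprostone lowest and below the median of its array. The means of the 2 probe sets on the log scale were 1833 in CF + lubiprostone, 12086 in CF control, 108 in WT + lubiprostone and 293 in WT control.

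The Pla2g4c signal in CF control was 41.3-fold that of WT control, with 36.8-fold and 46.2-fold by the 2 probe sets and an SD of the log2 ratio of 0.23. This was the 5th highest ratio of the 11806 genes compared. CF + lubiprostone was 6.59-fold below CF control, the 23rd lowest ratio of 11795 genes. The probe sets differed in size here, with 3.72-fold lower by the brighter and 11.7-fold lower by the dimmer one (SD of the log2 ratio 1.17). In WT + lubiprostone the signal was 2.71-fold lower than in WT control as measured and 2.39-fold lower with the dim signals at the median. By the 2 probe sets it was at least 3.29-fold and at least 1.74-fold lower. The treated pool was below the control pool in both genotypes, with a log2 ratio of -2.72 in CF and -1.44 in WT as measured. In WT it was -1.26 with the dim signals at the median. The difference of the measured values, CF minus WT, was -1.28, and it could not be tested with 1 array per group.

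On these arrays the Pla2g4c signal of CF + lubiprostone was above that of both WT pools. It was 6.26-fold that of WT control, with 9.90-fold and 3.95-fold by the 2 probe sets. Against WT + lubiprostone it was 16.9-fold as measured and at least 15.0-fold with the dim signals at the median, the 8th highest ratio of 11792 genes.

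Because Pla2g4c and Plb1 had the largest ratios among the 9 genes, the bases upstream of their first listed start sites are shown, from RefSeq on GRCm38.p6. Each is the plus strand, 5′ to 3′, and capitals mark the 50 bases next to the start. The Pla2g4c window is chr7:13325417-13325666 with 37.2% G and C, and the Plb1 window is chr5:32238834-32239083 with 49.2%. Each gene has 2 start sites in that table and these arrays do not show which was used.
Pla2g4c: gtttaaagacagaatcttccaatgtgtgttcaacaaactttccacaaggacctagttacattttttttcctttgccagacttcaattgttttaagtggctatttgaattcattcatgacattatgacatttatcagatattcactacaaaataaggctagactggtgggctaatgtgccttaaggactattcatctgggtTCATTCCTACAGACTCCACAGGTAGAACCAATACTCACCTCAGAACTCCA
Plb1: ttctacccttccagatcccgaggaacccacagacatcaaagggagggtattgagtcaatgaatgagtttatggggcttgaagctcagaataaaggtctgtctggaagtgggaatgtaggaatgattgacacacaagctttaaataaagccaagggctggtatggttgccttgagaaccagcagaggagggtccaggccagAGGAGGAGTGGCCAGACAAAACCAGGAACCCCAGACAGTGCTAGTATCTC

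Pla2g4a encodes cPLA2 alpha, the calcium-dependent enzyme that supplies most arachidonic acid for prostaglandin synthesis, and it lies next to Ptgs2, the gene of cyclooxygenase-2, on chromosome 1. Its signal was 748 in CF + lubiprostone, 1086 in CF control, 802 in WT + lubiprostone and 793 in WT control. CF control stood above the other 3 pools, which were close together. The ratio of CF control over WT control was 1.37, that of CF + lubiprostone over CF control was 0.689, and that of WT + lubiprostone over WT control was 1.01.

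Pla2g6 encodes the calcium-independent group VI enzyme, which takes part in membrane upkeep. By probe set 1422147_a_at its signal was 347 in CF + lubiprostone, 312 in CF control, 432 in WT + lubiprostone and 468 in WT control. By probe set 1431277_at it was 207, 186, 219 and 190 in the same order, and the third probe set (1431278_s_at) stayed below the median of every array. The first probe set was lower in both CF pools, at a ratio of 0.665 for CF control over WT control, while the second gave 0.976. Averaged over both, the ratio was 0.806 for CF control over WT control, 1.12 for CF + lubiprostone over CF control and 1.03 for WT + lubiprostone over WT control.

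**Figure D1:**
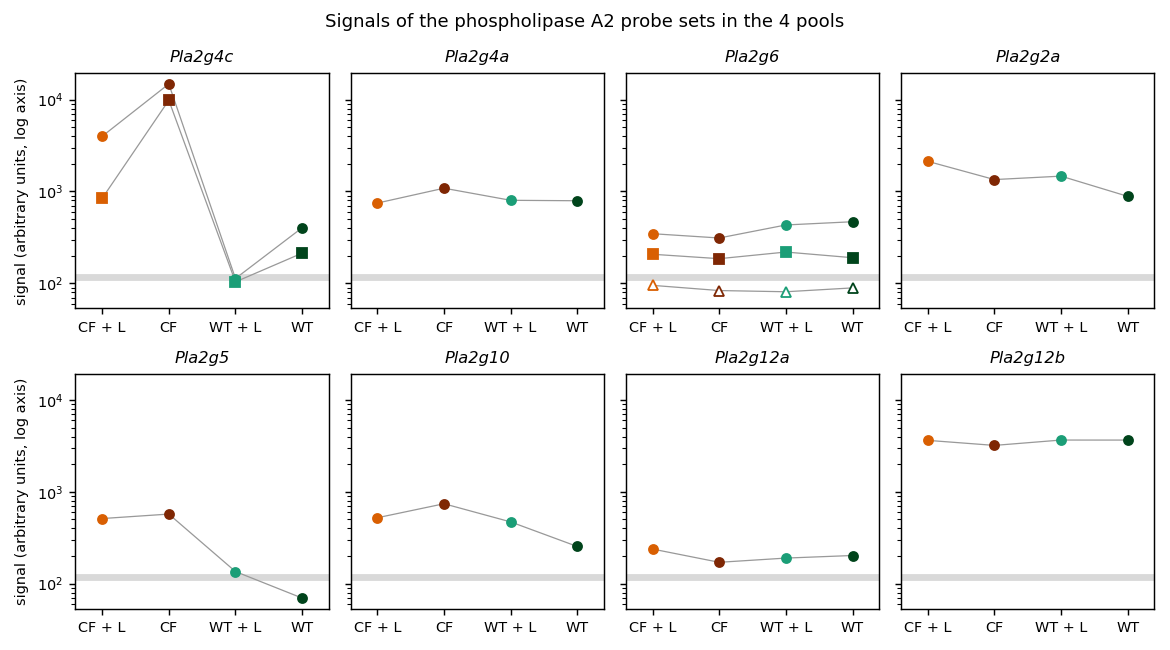
Signals of the 8 phospholipase A2 genes in arbitrary units on a log axis, in CF + lubiprostone (CF + L), CF control (CF), WT + lubiprostone (WT + L) and WT control (WT). Each line is 1 probe set, each point 1 array, open points are probe sets below the median on all arrays and the grey band is the range of the 4 medians (109 to 124). Pla2g4c reaches 14835 in CF control and Pla2g5 is high in both CF pools, while Pla2g12b is nearly flat.

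Pla2g2a is the group IIA secreted enzyme, an antibacterial protein of Paneth cells. C57BL/6 mice carry a natural disruption of this gene, and RefSeq lists it for that strain as a transcribed pseudogene, so the signal is of a transcript and not of a working enzyme. The signal (1450128_at) was 2130 in CF + lubiprostone, 1348 in CF control, 1470 in WT + lubiprostone and 885 in WT control. It was higher with lubiprostone in both genotypes, 1.58-fold in CF and 1.66-fold in WT, and the difference of the 2 log2 ratios, CF minus WT, was only -0.07. It was also higher in CF than in WT mice, 1.52-fold in the control pools and 1.45-fold in the treated pools. CF + lubiprostone thus had the highest signal, 2.41-fold that of WT control. The summed signal of 4 measured Paneth cell markers (Itln1, Ang4, Lyz1 and Mmp7) was 62272 in CF + lubiprostone, 72771 in CF control, 62983 in WT + lubiprostone and 57618 in WT control, which is a different order from that of Pla2g2a. Among the 4, only Mmp7 had the highest signal in CF + lubiprostone and the lowest in WT control, as Pla2g2a did. Mmp7, the protease that activates alpha-defensins (named after its values were seen), had 7137, 6073, 5005 and 3987 in the order of pools given for the sum. Itln1 had 22953, 25777, 27242 and 26121 in that order, lowest in CF + lubiprostone. Lyz1 had 6744, 8241, 10723 and 9392 as the mean of 3 probe sets on the log scale. Its dimmest probe set had 172, 366, 584 and 515, lowest in CF + lubiprostone. The 2 brighter ones had 40862, 38455, 43680 and 38176, and 43643, 39795, 48361 and 42101. In both of these CF + lubiprostone was above both control pools, so no order of the pools is read from Lyz1. Ang4 was highest in CF control, with 25439, 32680, 20013 and 18118. The part of Paneth cell RNA in these ratios was not tested.

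Pla2g5, the neighbour of Pla2g2a in the cluster of secreted enzymes on chromosome 4, encodes the group V enzyme, which is found in macrophages and heart. Its signal (1417814_at) was 511 in CF + lubiprostone, 572 in CF control, 135 in WT + lubiprostone and 69.6 in WT control, the last below the median of its array. Both CF pools were high and both WT pools low. CF control was 8.21-fold above WT control as measured and at least 4.62-fold, and CF + lubiprostone was 3.78-fold above WT + lubiprostone. Within CF mice the ratio of treated over control was 0.894. The 2 CF pools were thus close together for Pla2g5. Within WT mice treated over control was 1.94 as measured and at least 1.09. Gut smooth muscle markers and macrophage markers had other orders. All 6 smooth muscle markers summed to 12181 in CF + lubiprostone, 20015 in CF control, 12795 in WT + lubiprostone and 11093 in WT control. All 7 macrophage markers summed to 12270, 12328, 14522 and 15099 in the same order, and the part of either cell type in the Pla2g5 signal was not tested.

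Pla2g10 encodes the group X secreted enzyme, which is strongly active on phosphatidylcholine and is made in the gut epithelium. Its signal (1451502_at) was 522 in CF + lubiprostone, 741 in CF control, 470 in WT + lubiprostone and 254 in WT control. CF control was the highest pool, WT control the lowest, and the 2 treated pools lay close together between them. CF control was 2.92-fold above WT control, whereas CF + lubiprostone was 1.11-fold above WT + lubiprostone. Treated over control was 0.704 in CF mice and 1.85 in WT mice, on opposite sides of 1.

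Pla2g12a encodes the group XIIA secreted enzyme. Its signal (1452026_a_at) was 238 in CF + lubiprostone, 171 in CF control, 190 in WT + lubiprostone and 202 in WT control. The ratio was 0.843 for CF control over WT control, 1.39 for CF + lubiprostone over CF control and 0.937 for WT + lubiprostone over WT control. Pla2g12b encodes a relative that has lost catalytic activity and takes part in the secretion of triglyceride-rich lipoproteins in liver and intestine. Its signal (1419614_at) was 3632 in CF + lubiprostone, 3200 in CF control, 3660 in WT + lubiprostone and 3657 in WT control. Its ratios lay between 0.875 and 1.13 in all 5 comparisons, the narrowest range of the 9 genes.

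Plb1 encodes phospholipase B, which removes both fatty acids of a phospholipid at the brush border. Its brightest probe set (1437893_at) had a signal of 119 in CF + lubiprostone and 159 in CF control, against 2061 in WT + lubiprostone and 2405 in WT control. Probe set 1430666_at gave 5.93 in CF + lubiprostone, 3.78 in CF control, 267 in WT + lubiprostone and 298 in WT control. Probe set 1457837_at gave 75.1, 5.58, 186 and 249 in the same order. In all 3 the WT pools were above the CF pools, and of the 6 CF signals only the brightest probe set in CF control reached the median of its array. A further probe set (1431535_at) gave 27.5, 91.0, 106 and 72.4 in the same order, below the median on every array, and was not used.

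**Figure D2:**
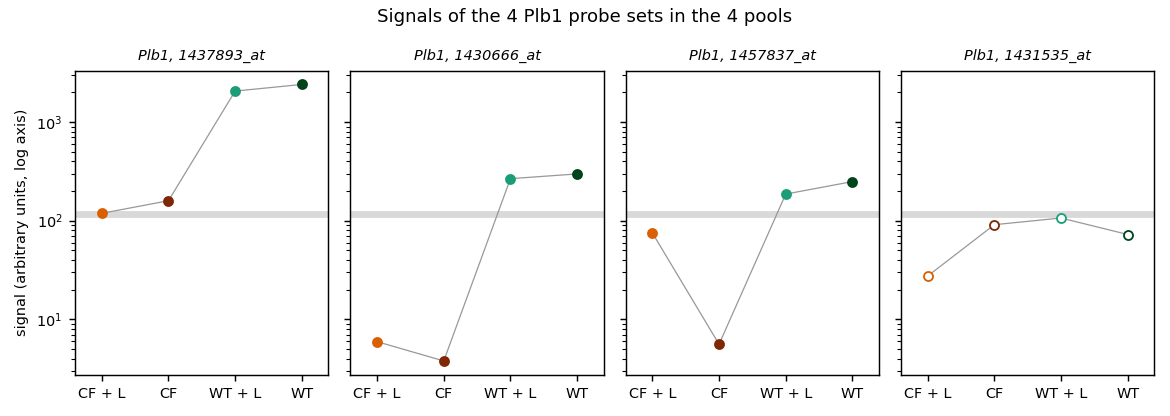
Signals of the 4 Plb1 probe sets in arbitrary units on a log axis, in CF + lubiprostone (CF + L), CF control (CF), WT + lubiprostone (WT + L) and WT control (WT). Points are single arrays, the grey band is the range of the 4 medians (109 to 124), and open points mark the probe set below the median on all arrays. The first 3 probe sets are high in both WT pools and at most 159 in both CF pools.

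By its brightest probe set, CF control was 15.1-fold below WT control for Plb1, and CF + lubiprostone was at least 17.2-fold below WT + lubiprostone. Over the 3 probe sets, CF control was 37.6-fold lower than WT control as measured and at least 4.54-fold lower, the 5th lowest ratio of 11806 genes as measured. CF + lubiprostone was 12.5-fold lower than WT + lubiprostone as measured and at least 3.91-fold lower, the 12th lowest of 11792 genes. WT + lubiprostone over WT control was 0.831, with an SD of the log2 ratio between probe sets of 0.14. In CF mice, treated over control was 2.51 as measured, but this rests on signals below the medians. With those at the median the ratio was 0.965, and by the brightest probe set alone it was 0.746, so no direction is given for the effect of treatment on Plb1 in CF mice. Enterocyte markers, as a measure of the cells that carry phospholipase B, summed over 7 measured genes to 214423 in CF + lubiprostone, 191137 in CF control, 257280 in WT + lubiprostone and 246082 in WT control. Of these, Lct, the brush border enzyme lactase, had 1992, 3276, 20420 and 24559 in these pools. Fabp1, the fatty acid binding protein, had 54051, 45262, 49431 and 48773. For each of the 7 the ratio of CF control over WT control was below 1. Only Lct was past 2-fold there, and the rest had ratios between 0.656 (Fabp2) and 0.981 (Apoa1). Between the treated pools, Fabp1 was the only marker with the higher signal in CF mice, and 6 had the lower. The part of enterocyte number in the Plb1 signal was not tested.

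In CF control over WT control, 5 of the 9 genes were higher, beside 48.2% of all genes, and 4 lower. The median log2 ratio of the 9 was 0.45, beside -0.02 over all genes. At least 2-fold higher were 3 of the 9 (Pla2g4c, Pla2g5 and Pla2g10), where 2.8% of all genes were, and at least 2-fold lower was Plb1, where 4.84% were. At 3-fold, Pla2g4c and Pla2g5 were higher and Plb1 lower, beside 1.16% and 1.82% of all genes. Pla2g10 also reached 3-fold with all arrays scaled to the same median (log2 ratio 1.73) and with quantile normalization (1.61). Over all genes the split at 2-fold was 331 higher and 571 lower, and it turned to 502 higher and 419 lower with all arrays scaled to the same median and to 418 and 455 with quantile normalization. The split at 3-fold was 137 higher and 215 lower, and 174 and 165 with the same median.

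In CF + lubiprostone over CF control, 5 of the 9 were higher as measured, Plb1 among them, beside 51.5% of all genes, and 4 lower. The median of the 9 was 0.16, beside 0.01 over all genes. Pla2g4c was the only one at least 2-fold lower and the only one at least 3-fold lower, where 2.15% and 0.738% of all genes were. Plb1 was at least 2-fold higher as measured, through signals below the medians as given above, where 3.2% of all genes were, and none was at least 3-fold higher, where 0.941% were. Over all genes the split at 2-fold was 378 higher and 254 lower, against 265 and 344 with the same median and 280 and 303 with quantile normalization. At 3-fold it was 111 and 87, against 85 and 108 with the same median and 89 and 105 with quantile normalization.

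In WT + lubiprostone over WT control, 6 of the 9 were higher, beside 49.5% of all genes, and 3 lower. The median of the 9 was 0.02, beside -0.00 over all genes. Only Pla2g4c passed 2-fold, downward, where 1.42% of all genes were lower and 1.35% higher. None passed 3-fold in either direction, where 0.488% of all genes were higher and 0.573% lower.

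In CF + lubiprostone over WT + lubiprostone, 5 of the 9 were higher, beside 50.3% of all genes, and 4 lower. The median of the 9 was 0.15, beside 0.00 over all genes. Pla2g4c and Pla2g5 were past 2-fold and past 3-fold upward, beside 3.22% and 1.27% of all genes. Plb1 was past both downward, beside 3.41% and 1.25%. Against WT control, CF + lubiprostone had 4 genes at least 2-fold higher (Pla2g4c, Pla2g5, Pla2g2a and Pla2g10), beside 3.65% of all genes, and 2 of them at least 3-fold higher (Pla2g4c and Pla2g5), beside 1.42%. Plb1 was past 2-fold and 3-fold downward there, beside 4.11% and 1.58%. All these shares are given as the background of the counts, and since the genes were chosen with these values known nothing is read from them. The comparisons share arrays, in particular CF control in the first and second.

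**Figure D3:**
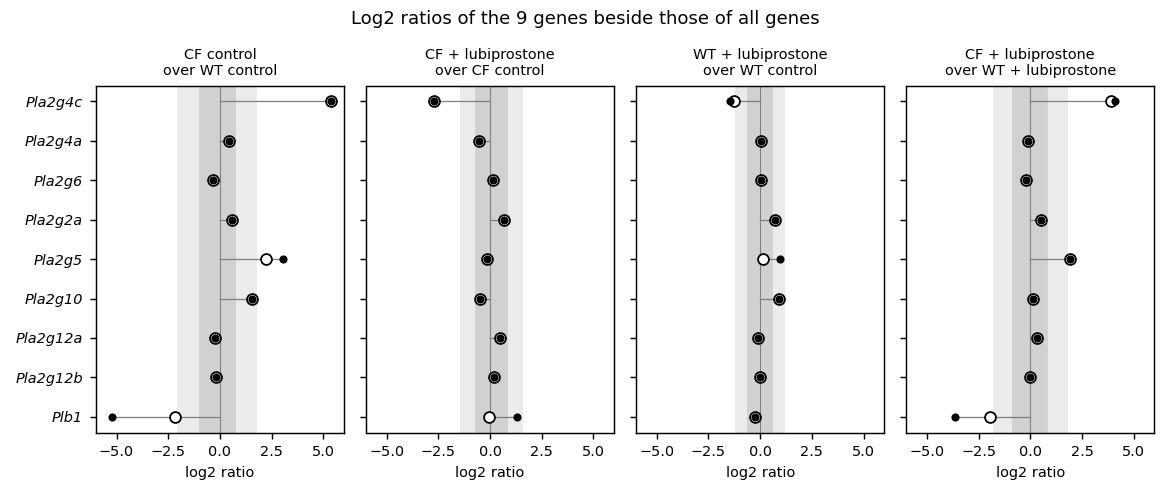
Log2 ratios of the 9 genes in 4 comparisons, with the first-named pool over the second. Filled dots are as measured, open circles have signals below an array's median set to it, and grey bands hold the 5th to 95th and the 1st to 99th percentile of all genes. Pla2g4c is far to the right in the comparisons of CF over WT and to the left in both treatments, and Plb1 moves toward 0 when its dim signals are set to the median.

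A list of 27 other phospholipases A2 and related acyl hydrolases also held Pla2r1, a receptor for secreted enzymes that was counted again among the regulators and receptors. Of this list 17 counted in CF control over WT control, with 10 higher, 7 lower, none past 2-fold and a median log2 ratio of 0.01. In CF + lubiprostone over CF control 19 counted, with 10 higher and 9 lower, beside 51.5% of all genes higher. Past 2-fold was 1 of them, downward, where 2.15% of all genes were. That 1 was Pla2g1b, the pancreatic digestive enzyme (named after its values were seen), with 27.4 in CF + lubiprostone, 209 in CF control, 50.6 in WT + lubiprostone and 242 in WT control. The signal of Pla2g1b was high in both control pools and below the medians in both treated pools, at least 1.75-fold lower with treatment in CF and at least 1.98-fold lower in WT. In WT + lubiprostone over WT control 17 counted, with 10 higher and 7 lower, beside 49.5% of all genes higher. As measured, 1 was past 2-fold each way, Pla2g2f upward and Pla2g1b downward, where 1.35% and 1.42% of all genes were. Pla2g2f, a secreted enzyme named after its values were seen, had 132 in WT + lubiprostone and 24.9 in WT control, 5.31-fold as measured and at least 1.07-fold, so that neither gene was past 2-fold with dim signals at the median. The 6 measured regulators and receptors of these enzymes had none past 2-fold in any of the 5 comparisons, where 1.35% to 4.84% of all genes were in each direction.

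Of the pancreatic lipases and their cofactors, Cel, the bile salt-stimulated lipase, had signals of 436 in CF + lubiprostone, 2368 in CF control, 209 in WT + lubiprostone and 2218 in WT control. Pnliprp1, a pancreatic lipase-related protein, had 360, 1299, 194 and 1359 in these pools. Pnliprp2 had 2742, 7250, 2506 and 2752, and Clps had 3371, 7816, 4306 and 5422. With treatment in WT mice, Pnliprp2 was 1.10-fold lower and Clps 1.26-fold lower. All 4 measured genes of that list were past 2-fold downward in CF + lubiprostone over CF control, where 2.15% of all genes were. In WT + lubiprostone over WT control 2 of the 4 were so, where 1.42% of all genes were. The summed signal of 5 measured acinar cell markers was 5724 in CF + lubiprostone, 22585 in CF control, 2238 in WT + lubiprostone and 21799 in WT control. Cela1 and Cela2a, the markers brightest in WT control, had 1368 and 860 in CF + lubiprostone and 4071 and 3747 in CF control. They had 789 and 478 in WT + lubiprostone, and 5206 and 4980 in WT control. Ctrb1, the marker brightest in CF control, had 1581 in CF + lubiprostone, 6570 in CF control, 371 in WT + lubiprostone and 4840 in WT control. Pla2g1b, Cel and Pnliprp1 likewise had both control pools above both treated pools. Of the treated pools, CF + lubiprostone was the lower for Pla2g1b, on signals below the medians, and WT + lubiprostone for the acinar cell sum. The part of acinar cell RNA in the ratios of these genes was not tested. None of the 9 genes had both control pools above both treated pools.

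Downstream of the phospholipases, the lysophospholipid left behind is reacylated or broken down. Of 18 measured genes of this kind, 10 were higher and 8 lower in CF control over WT control, beside 48.2% of all genes higher. Past 2-fold was 1 of them, upward, where 2.8% of all genes were. That was Mboat1, an acyltransferase for lysophospholipids, with a mean signal of 378 in CF + lubiprostone, 246 in CF control, 68.7 in WT + lubiprostone and 79.5 in WT control. Both CF pools were above both WT pools, 3.10-fold in the control pools as measured and at least 2.13-fold, and 5.51-fold in the treated pools as measured and at least 2.54-fold.

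Of 13 measured genes that make or break down eicosanoids, 6 were higher and 7 lower in CF control over WT control, beside 48.2% of all genes higher. As measured, 1 was at least 2-fold higher (Alox15) and 2 at least 2-fold lower (Hpgd and Ltc4s), where 2.8% and 4.84% of all genes were. Alox15, a lipoxygenase, had signals of 57.9 in CF + lubiprostone, 165 in CF control, 48.3 in WT + lubiprostone and 30.0 in WT control, which put CF control 5.50-fold above WT control as measured and at least 1.33-fold. Alox5ap and Alox5, which act together at the start of leukotriene synthesis, had ratios of 1.88 and 1.87 (at least 1.84) in that comparison. Alox15, Alox5ap and Alox5 were named after their values were seen. Hpgd, the enzyme that inactivates prostaglandins, had a mean signal of 1085 in CF + lubiprostone, 549 in CF control, 1862 in WT + lubiprostone and 2140 in WT control. CF control was 3.90-fold below WT control, CF + lubiprostone was 1.72-fold below WT + lubiprostone, and CF + lubiprostone was 1.98-fold above CF control. Hpgd was lowest in CF control, the pool in which Pla2g4c was highest. Ltc4s, the leukotriene C4 synthase (named after its values were seen), had signals of 125, 162, 256 and 352 in the order CF + lubiprostone, CF control, WT + lubiprostone and WT control, and was lower in both CF pools. Of 13 measured phospholipases C and D, 4 were higher and 9 lower in CF control over WT control, beside 48.2% of all genes higher. As measured, 1 passed 2-fold, downward, where 4.84% of all genes did. This was Plcb2, a phospholipase C (named after its values were seen), with 80.02 in CF control and 193 in WT control, 2.41-fold lower as measured and at least 1.77-fold lower.

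CF control was the highest pool for the mast cell proteases Mcpt1, Mcpt2 and Cpa3 as well as for Pla2g4c. Of 8 mast cell markers 6 were measured, and their summed signal was 1183 in CF + lubiprostone, 10383 in CF control, 715 in WT + lubiprostone and 976 in WT control. Mcpt1 and Mcpt2, the proteases of mucosal mast cells, carried most of the sum in CF control, with 5798 and 3270 there. Cpa3, a mast cell carboxypeptidase, had 121 in CF + lubiprostone, 608 in CF control, 53.1 in WT + lubiprostone and 86.6 in WT control. Fcer1a, a chain of the IgE receptor, had 6.18, 233, 29.1 and 41.9 in these pools. For Cpa3, CF control was 7.02-fold above WT control as measured and at least 4.91-fold. For Fcer1a it was 5.56-fold above as measured and at least 1.88-fold. Kit and Gata2 differed much less between pools. Kit, the stem cell factor receptor, had 201 in CF + lubiprostone, 241 in CF control, 238 in WT + lubiprostone and 275 in WT control. Gata2, a transcription factor, had 181, 232, 181 and 199 in these pools. Tpsb2 and Cma1, proteases of connective tissue mast cells, were below the medians on all 4 arrays. The part of mast cell number in the Pla2g4c signal was not tested.

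**Figure D4:**
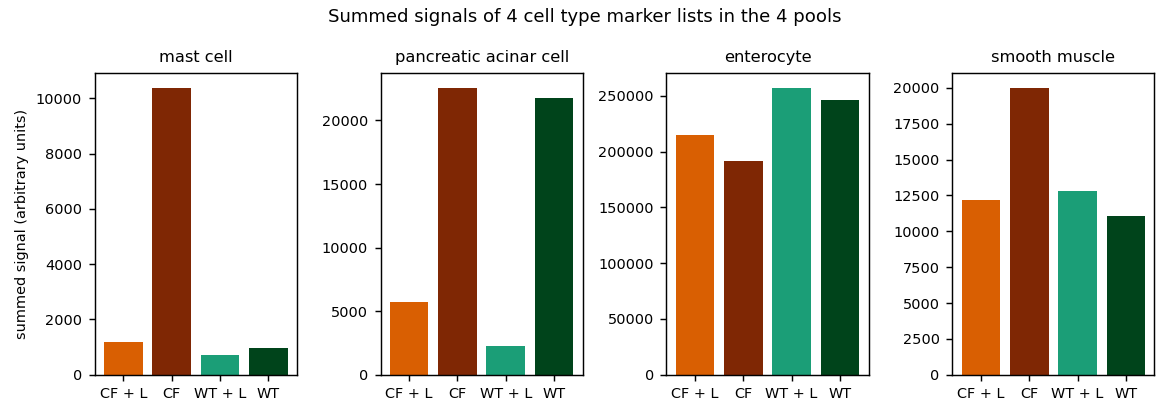
Summed signals, in arbitrary units from 0, of the measured mast cell, pancreatic acinar cell, enterocyte and smooth muscle markers in CF + lubiprostone (CF + L), CF control (CF), WT + lubiprostone (WT + L) and WT control (WT). Each bar is 1 array. Mast cell markers reach 10383 in CF control, acinar cell markers are high in both control pools, and enterocyte markers lie between 191137 and 257280.

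The genes whose pattern over the 4 arrays was closest to that of Pla2g4c were sought among 7411 genes that reached the 75th percentile on an array, by the Euclidean distance between log2 signals centred on each gene's mean. They were Mcpt1 at 1.28, Gsdmc2 at 1.56, Reg2 at 1.97, Mcpt2 at 2.38 and Prss3 at 2.66. The mast cell protease Mcpt1 had signals of 376 in CF + lubiprostone, 5798 in CF control, 74.2 in WT + lubiprostone and 143 in WT control. The gasdermin Gsdmc2 had 1220, 16915, 194 and 875 in the same order. For both, CF + lubiprostone lay further below CF control than for Pla2g4c, at log2 ratios of -3.95 and -3.79 beside -2.72.

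For Plb1 the closest 5 were Ugt2b5, Slc5a4a, Rdh7, Cyp3a11 and Cyp3a25, at distances between 0.55 and 1.56. Since 5 of the 6 Plb1 signals in the CF pools were below the medians, the order among these genes is not read. Ugt2b5, a glucuronosyltransferase, had signals of 210 in CF + lubiprostone, 94.9 in CF control, 1935 in WT + lubiprostone and 2290 in WT control. Cyp3a11, a drug-metabolizing cytochrome P450, had 4395, 2845, 33124 and 27740 in the same order. All 5 were higher in both WT pools than in both CF pools, a pattern set by choosing them for closeness to Plb1. These distances describe 4 arrays and carry no test.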

How the data were processed

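The authors extracted the intensities of 4 arrays with GCOS, and the submitters' processing notes name GCOS and MAS5, with no version given in the sources used here. The deposited table holds these intensities on a linear scale, already scaled, without detection calls, and 0 of its columns were left unused. Of 45101 probe sets, 34958 carry 1 gene symbol, 932 several (none with a member of the family) and 9211 none in the annotation used. A probe set was kept at or above its array's median on at least 1 array, which left 12259 genes, and counted in a comparison when this held on 1 of the 2 arrays compared. Log2 ratios of kept probe sets were averaged per gene, and genes were counted at 2-fold and 3-fold. Single arrays allow no test, and 1 array per group limits the precision. The steps were tested on simulated data. The 8 alternatives were 2 scalings, 2 filters, 2 ways of averaging, dim signals at the median and counts of probe sets. The members, the 6 pathway lists and the 12 marker lists were chosen with earlier results of these data known. Named genes were all 9 members, pathway genes past 3-fold between genotypes or with treatment in CF mice and bright on an array (75th percentile), the 5 nearest patterns and some bright markers. Further genes, many of them marked as named after their values were seen, were added outside this rule. Python 3.11.15, numpy 2.4.6, pandas 2.3.3 and matplotlib 3.10.9 were used.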

Additional observations from a re-analysis of the deposited data

Results flagged for a closer look

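The log2 ratio of treated over control mice had opposite signs in CF and WT mice for 5 of the 9 genes as measured (Pla2g4a, Pla2g5, Pla2g10, Pla2g12a and Plb1). The share of all genes with opposite signs was not counted. Of all genes, 51.5% were higher with treatment in CF mice and 49.5% in WT mice, and nothing is read from the count of 5. For 2 of the 5, Pla2g10 and Plb1, both ratios were larger than the median SD between probe sets. Neither difference was tested, since each group was 1 array. Pla2g10 had -0.51 in CF mice and 0.89 in WT mice, a difference of -1.40. Plb1 had 1.33 in CF mice as measured and -0.27 in WT mice, a difference of 1.59. The CF value of Plb1 rests on signals below the medians of their arrays, and the opposite signs were lost with those at the median (-0.05 in CF, -0.27 in WT) and by the brightest probe set (-0.42 in CF, -0.22 in WT).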

How the results depend on the processing

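Of 301 ratios of the 9 genes under the 7 alternatives that give ratios, 271 moved by less than the spread between probe sets, 28 by more, and 2 reversed. Both reversals were Plb1 in CF + lubiprostone over CF control, at -0.42 on the log2 scale by the brightest probe set and -0.052 with dim signals at the median, and its count at 2-fold higher was 0 under these and under no filter, the 75th percentile filter, linear averaging and counts of probe sets. For signs at any size, 9 changed, the other 7 being Pla2g6 and Pla2g12b at small ratios. With probe sets counted in place of genes, the numbers at least 2-fold and 3-fold lower were 3 and 3 for CF control over WT control, 2 and 2 for CF + lubiprostone over CF control, 2 and 1 for WT + lubiprostone over WT control, 3 and 2 for CF + lubiprostone over WT + lubiprostone, and 3 and 3 for CF + lubiprostone over WT control. In WT + lubiprostone over WT control, the number 2-fold lower was 0 with the 75th percentile filter, and the number 3-fold lower was 1 by the brightest probe set. Scaling to the same median moved the median of all genes to 0.16 for CF control over WT control and -0.12 for the treated over the untreated CF pool. No paired analysis was possible because each group had 1 array. Signals near or below the array medians limit the ratios that use Plb1 in CF mice, Pla2g4c in WT + lubiprostone or Pla2g5 in WT control, for which a lower bound stands beside the measured fold.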
